A study of Arabidopsis thaliana and Lotus japonicus with 44 samples.

Results

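The nitrate response regulators described here are 10 genes of *Arabidopsis thaliana*: the transcription factor *NLP7*, the NIGT1 family members *HRS1*, *HHO1*, *HHO2* and *HHO3*, the LBD factors *LBD37*, *LBD38* and *LBD39*, and *BT1* and *BT2*. They were picked by gene identifier, and they make up 10 of the 36796 genes in the Arabidopsis tables. Of the 10, 7 reached 10 counts in some library and were tested, as were 16540 genes in all.

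RNA-seq libraries were made from roots of plants grown on sterile plates, and each library pooled the roots of seedlings from the same plate, so p-values measure the spread between such pools. Lines 308 and 310 express IPD3Min, the DNA-binding part of the *Medicago truncatula* symbiosis transcription factor IPD3, from a constitutive ubiquitin promoter in the Col-0 background. Each is a single independent insertion line, and Col-0 is the wild type. On low-nutrient (LN) medium there were 3 libraries of line 308 and 5 of Col-0, all from plants given germinated spores of the arbuscular mycorrhizal fungus (AMF) *Rhizophagus irregularis*. On the standard 1/2 MS medium with AMF (+AMF) there were 3 libraries of line 310, 4 of line 308 and 4 of Col-0. On 1/2 MS medium with a mock treatment (−AMF) there were likewise 3 of line 310, 4 of line 308 and 4 of Col-0. LN medium holds less nitrogen, phosphate and potassium at once, so the effects of these nutrients cannot be told apart, and it was compared with 1/2 MS medium in +AMF plants only.

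Plants read nitrate both as a nutrient and as a signal. NLP7 binds nitrate and, once it is held in the nucleus, switches on the primary nitrate response, which includes its own set of repressors. The NIGT1 proteins are GARP-type repressors that nitrate induces. They turn down high-affinity nitrate transporter genes such as *NRT2.1* when nitrate is plentiful and turn down *SPX* genes, which ties the nitrogen supply to the phosphate starvation response. LBD37, LBD38 and LBD39 are repressors of anthocyanin synthesis and of nitrogen-responsive genes, and BT1 and BT2 are BTB-TAZ scaffold proteins that lower *NRT2* expression and nitrate uptake when nitrate is low.

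How much of each gene was counted differed. The authors counted read pairs per annotated transcript, and a pair that overlaps more than 1 transcript was not counted, so a gene with several transcripts keeps only pairs from a stretch that belongs to 1 of them. *LBD38* (AT3G49940, chr3:18514266-18516131, plus strand), *LBD39* (AT4G37540, chr4:17639393-17640925, minus strand), *HRS1* (AT1G13300, chr1:4556878-4558793, plus strand) and *HHO2* (AT1G68670, chr1:25781801-25784118, plus strand) have 1 annotated transcript each, in TAIR10 coordinates, and were counted over their whole exons. *BT1* (AT5G63160, chr5:25333172-25335570, minus strand) was counted on 622 of its 2204 exon bases. *BT2* (AT3G48360, chr3:17907767-17910738, minus strand) was counted on 546 of 2623 exon bases. *NLP7* (AT4G24020, chr4:12479528-12484049, plus strand) was counted on 134 of 3483 exon bases. The remaining 3 genes gave too few counts to be tested. *LBD37* (AT5G67420, chr5:26903866-26906524, minus strand) had 13 counts in all, none of them in the 8 LN libraries. *HHO1* (AT3G25790, chr3:9413052-9415240, plus strand) had 28 counts, 18 of them in the 8 LN libraries and 10 in the 22 libraries from 1/2 MS medium. *HHO3* (AT1G25550, chr1:8976326-8978305, plus strand) had 1 count. These sums cover a part of each gene only and say nothing of its level.

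The stretches that carry the counts of *BT1*, *BT2* and *NLP7* are introns in another annotated transcript of the same gene, and they are shown because the values below rest on them. Each starts with GT and ends with AG, in capitals, the bases at the ends of most plant introns. The sequences were read from RefSeq TAIR10.1 on the strand of the gene. The second stretch of *BT1* spans 346 bases of AT5G63160.3 (chr5:25334688-25335033) and that of *BT2* spans 342 bases of AT3G48360.2 (chr3:17908630-17908971).
*BT1*, AT5G63160.2, chr5:25333672-25333947, minus strand: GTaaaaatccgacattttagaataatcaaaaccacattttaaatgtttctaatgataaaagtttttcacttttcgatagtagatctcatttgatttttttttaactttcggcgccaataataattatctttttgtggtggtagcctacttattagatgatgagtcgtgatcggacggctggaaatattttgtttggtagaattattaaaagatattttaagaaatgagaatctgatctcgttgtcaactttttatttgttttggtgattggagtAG
*BT2*, AT3G48360.3, chr3:17909889-17910092, minus strand: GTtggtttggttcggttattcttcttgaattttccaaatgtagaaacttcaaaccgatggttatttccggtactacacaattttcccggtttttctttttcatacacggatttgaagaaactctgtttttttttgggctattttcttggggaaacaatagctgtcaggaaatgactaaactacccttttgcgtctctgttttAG
*NLP7*, AT4G24020.1, chr4:12480867-12481000, plus strand: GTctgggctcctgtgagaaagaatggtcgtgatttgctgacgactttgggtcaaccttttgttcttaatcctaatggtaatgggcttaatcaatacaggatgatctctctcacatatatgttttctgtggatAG
Counts on such stretches come from the transcript that keeps them or from RNA that has not been spliced, and these sources were not told apart. For these 3 genes the fold changes below are those of the stretch.

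The 4 genes that were counted in full differed in their response, and the 250 bases upstream of each are shown so that sequence can be set beside response. Capitals mark GAATC and GAATATTC, motifs known for NIGT1 binding, searched on both strands, so GATTC is GAATC on the other strand. GAATATTC also matches the phosphate response motif P1BS (GNATATNC). The motifs were chosen after the responses had been seen. The sequences are from RefSeq TAIR10.1, and each window ends just before the most upstream start in the deposited annotation.
*LBD38*, chr3:18514016-18514265, plus strand: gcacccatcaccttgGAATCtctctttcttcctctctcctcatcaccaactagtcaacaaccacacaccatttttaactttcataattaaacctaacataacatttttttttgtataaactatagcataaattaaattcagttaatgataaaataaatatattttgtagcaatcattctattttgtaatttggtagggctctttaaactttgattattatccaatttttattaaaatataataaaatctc
*LBD39*, chr4:17640926-17641175, minus strand: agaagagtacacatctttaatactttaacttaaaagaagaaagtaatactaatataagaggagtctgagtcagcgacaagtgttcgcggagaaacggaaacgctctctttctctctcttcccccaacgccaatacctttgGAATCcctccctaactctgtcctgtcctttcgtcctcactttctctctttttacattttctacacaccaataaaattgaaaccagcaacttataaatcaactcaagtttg
*HRS1*, chr1:4556628-4556877, plus strand: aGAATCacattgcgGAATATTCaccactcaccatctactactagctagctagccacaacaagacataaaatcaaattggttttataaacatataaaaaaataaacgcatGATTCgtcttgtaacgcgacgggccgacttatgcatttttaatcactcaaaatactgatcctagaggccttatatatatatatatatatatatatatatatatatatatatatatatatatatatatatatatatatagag
*HHO2*, chr1:25781551-25781800, plus strand: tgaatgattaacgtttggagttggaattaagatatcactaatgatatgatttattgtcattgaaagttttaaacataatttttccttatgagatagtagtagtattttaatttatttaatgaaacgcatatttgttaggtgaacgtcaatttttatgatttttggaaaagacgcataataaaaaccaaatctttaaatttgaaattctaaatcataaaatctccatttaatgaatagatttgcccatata
Over 27431 upstream stretches of the same length from protein-coding genes, 38.8% hold GAATC, 0.9% GAATATTC and 5.5% P1BS. *LBD38* and *LBD39* held 1 GAATC each, *HRS1* held 2 GAATC and 1 GAATATTC, and *HHO2* held none of the motifs in this window.

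The libraries held between 13125046 and 14790061 counts, and the mean correlation of a library with those of its own group was between 0.979 and 0.989, lowest in Col-0 LN replicate 5. Names of the LN files come in 2 forms, and those of all files from 1/2 MS medium have 1 form. Of 10 markers of root cell types, all were tested. *COBL9*, *EXPA7*, *CASP1*, *SHR*, *SCR*, *SUC2* and *NRT1.5* were present in every library, and *PIN2*, *WER* and *SMB*, which have several annotated transcripts, reached at most 1.53 CPM (counts scaled to the size of the library, with TMM factors). Of 10 leaf markers 6 were tested, with *RBCS3B* and *CA1* at 0 throughout, and *RBCS1A* and *RBCS2B* at most at 0.22 CPM. *RBCS3B*, *CA1* and *RBCS1A* have more than 1 annotated transcript, so pairs shared between transcripts were not counted, and *RBCS2B* has 1. The summed level of the leaf markers was 162.3 to 339.1 CPM in line 308 LN and 460.0 to 663.1 CPM in Col-0 LN, against 476.0 to 841.4 CPM in line 308 +AMF and 1445.4 to 1723.0 CPM in Col-0 +AMF, most of it from *CAB1*. The summed root markers, most of them *NRT1.5*, were 1364.8 to 1915.7 CPM in line 308 LN and 1312.5 to 1580.8 CPM in Col-0 LN, against 1921.7 to 2847.2 CPM in line 308 +AMF and 3040.8 to 3874.8 CPM in Col-0 +AMF. Both sums were lower on LN in each genotype and, on 1/2 MS medium with AMF, lower in line 308 than in Col-0, and on LN the leaf sum was also lower in line 308. Marker by marker, the root list did not fall as its sum did. Of its 10 genes, 3 were called higher and 1 lower on LN in Col-0, with a median log2 fold change of 0.35. In line 308 they were 2 higher and 1 lower, with a median of 0.07. On LN 35.8% of all genes tested were called in Col-0 and 31.7% in line 308. The part of the marker levels in the results was not tested. In bulk roots, fewer cells of a type and less RNA per cell cannot be told apart.

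**Figure D1:**
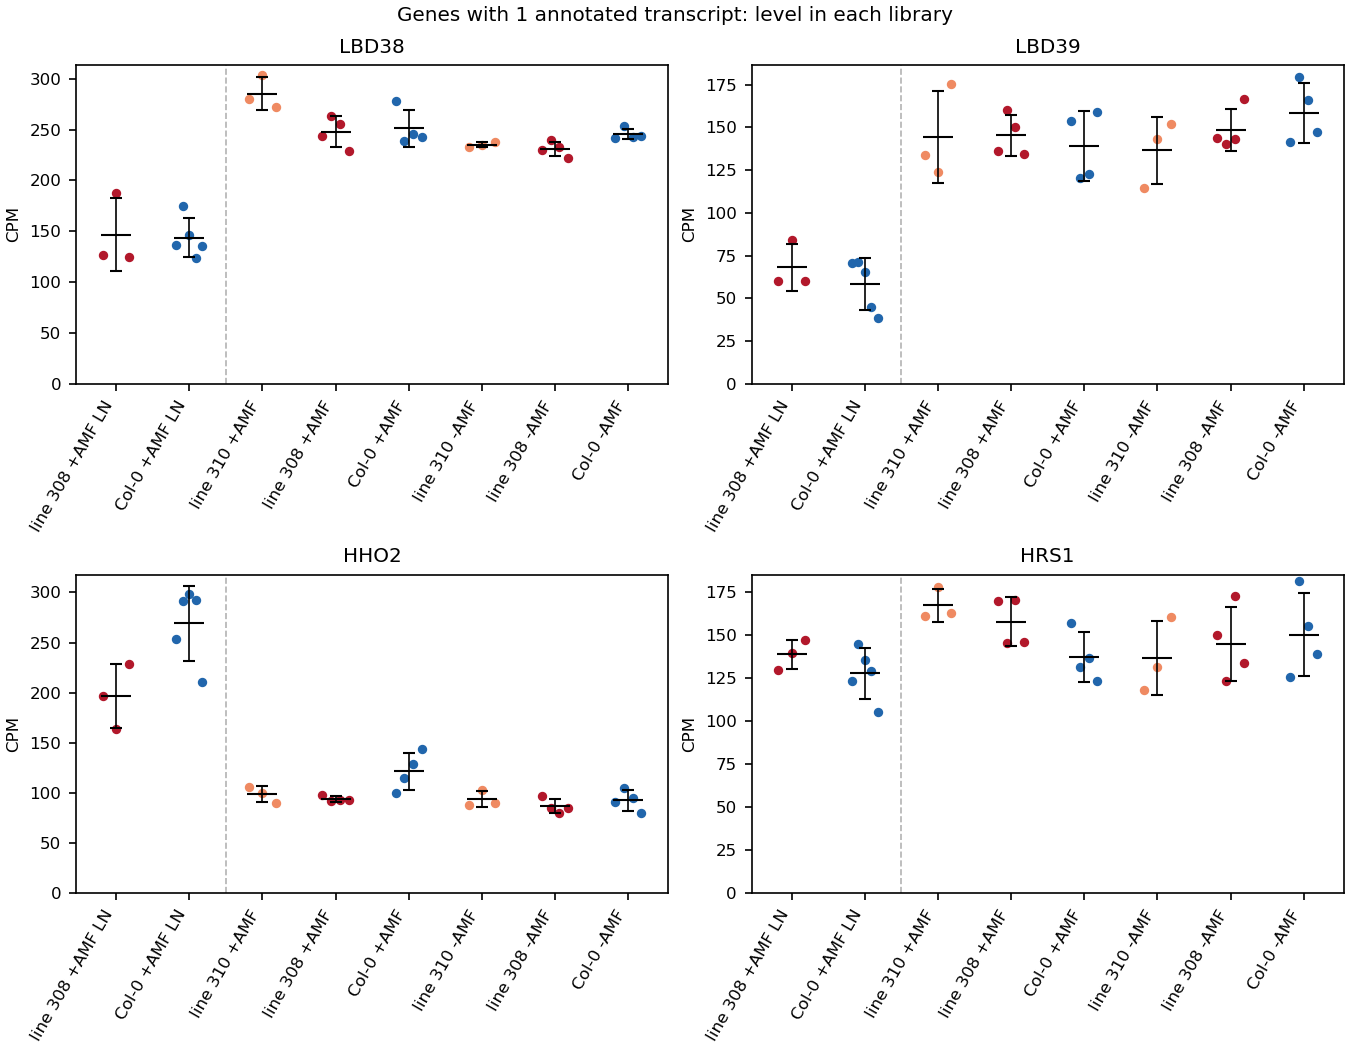
Level in CPM of the 4 genes with 1 annotated transcript in each of the 30 libraries (points), with the group mean and SD (bars), and LN groups left of the dashed line. *LBD38* and *LBD39* lie lower on LN than on 1/2 MS medium, *HHO2* lies higher, at 163.9 to 298.2 CPM on LN, and the *HRS1* groups overlap.

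The first question was how the regulators differed between LN and 1/2 MS medium among +AMF roots. *LBD38*, *LBD39*, *BT1* and *BT2* fell and *HHO2* rose in both genotypes, the falls between 1.76-fold for *LBD38* and 11.8-fold for *BT2* in Col-0. *HRS1* passed the test in neither genotype. *NLP7* passed the test, as lower, in line 308 and not in Col-0, and the difference between the genotypes is given below. Throughout, a gene is called when the adjusted p (Benjamini-Hochberg over all genes tested) of the quasi-likelihood test of edgeR is under 0.05. In line 308 6 of the 7 were called (1 higher, 5 lower), beside 31.7% of all genes tested, 16.7% higher and 15% lower. In Col-0 5 of the 7 were called (1 higher, 4 lower), beside 35.8% of all genes tested, 19.3% higher and 16.5% lower. Their median log2 fold change was −1.02 in line 308 and −0.81 in Col-0, where the medians of all genes tested were 0.01 and 0.01. For none of the called genes did the libraries of the media overlap. This rests on the same values as the calls and is no separate result. For how many of all genes tested the libraries stood apart in this way, here or in the comparisons below, was not counted.

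Among the LBD factors, *LBD38* had 126.4, 188.1 and 125.1 CPM in line 308 LN, against 243.5, 263.7, 255.5 and 229.2 CPM in line 308 +AMF. The log2 fold change was −0.75 (SE 0.14, adjusted p = 0.00308). In Col-0 it had 136.8, 175.2, 146.5, 124.0 and 135.4 CPM on LN, against 277.8, 238.5, 245.6 and 243.0 CPM on 1/2 MS medium. Every LN library lay below every library from 1/2 MS medium, and the log2 fold change was −0.81 (SE 0.10, adjusted p = 5.79e-05). *LBD39* had 60.29, 84.03 and 60.21 CPM in line 308 LN, against 136.5, 160.3, 150.3 and 134.7 CPM in line 308 +AMF, a log2 change of −1.09 (SE 0.13, adjusted p = 0.000293). Its Col-0 libraries had 70.62, 71.17, 65.1, 45.15 and 38.64 CPM on LN, against 154.0, 120.2, 123.0 and 159.0 CPM on 1/2 MS medium. Here too the media did not overlap, and *LBD39* fell by 1.27 on the log2 scale in Col-0 (SE 0.18, adjusted p = 0.000165).

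Of the NIGT1 members that could be measured, *HHO2* was called and *HRS1* was not. *HHO2* had 197.0, 163.9 and 228.1 CPM in line 308 LN, against 98.1, 91.65, 92.68 and 92.94 CPM in line 308 +AMF. Its log2 fold change was 1.07 (SE 0.10, adjusted p = 0.000108), a rise in every LN library of line 308. The libraries of Col-0 had 253.9, 291.7, 298.2, 292.3 and 210.5 CPM on LN, against 99.49, 114.7, 128.4 and 143.2 CPM on 1/2 MS medium, a log2 change of 1.14 (SE 0.13, adjusted p = 3.18e-05). *HRS1*, a close relative in the same family, had 129.9, 139.5 and 147.0 CPM in line 308 LN, against 169.8, 145.6, 170.3 and 145.9 CPM in line 308 +AMF. The groups overlapped by 1 library, and the log2 change of −0.18 (SE 0.09, adjusted p = 0.158) did not pass the test. In Col-0 *HRS1* had 123.5, 144.9, 135.7, 129.1 and 105.5 CPM on LN, against 157.1, 131.7, 136.6 and 123.4 CPM on 1/2 MS medium (log2 fold change −0.11, SE 0.10, adjusted p = 0.422). The difference between *HHO2* and *HRS1* was not tested.

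**Figure D2:**
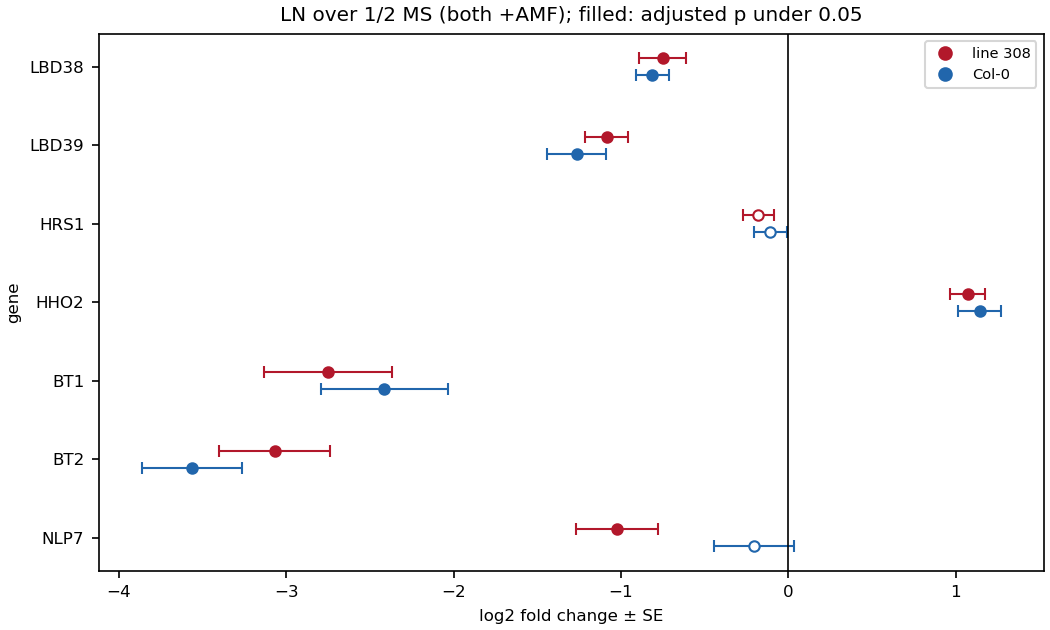
Log2 fold change of LN over 1/2 MS medium in +AMF roots (horizontal axis, ± SE) for the 7 genes tested, line 308 above Col-0, with filled points for an adjusted p under 0.05. *HHO2* alone lies to the right of 0, at 1.07 in line 308 and 1.14 in Col-0, and *BT2* lies farthest to the left, at −3.07 in line 308 and −3.56 in Col-0.

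On their stretches, *BT1* and *BT2* fell most among the 7. *BT2* had 14, 19 and 5 counts in line 308 LN, against 122, 111, 118 and 76 counts in line 308 +AMF, a log2 change of −3.07 (SE 0.33, adjusted p = 0.000195). In Col-0 it had 19, 20, 16, 12 and 9 counts on LN, against 162, 135, 153 and 278 counts on 1/2 MS medium, a log2 change of −3.56 (SE 0.30, adjusted p = 3.92e-06). The highest LN library of either genotype thus held 20 counts of *BT2*. *BT1* had 17, 18 and 8 counts in line 308 LN, against 141, 75, 113 and 58 counts in line 308 +AMF, a log2 change of −2.75 (SE 0.38, adjusted p = 0.000686). Col-0 had 14, 12, 9, 10 and 8 counts on LN, against 84, 29, 35 and 83 counts on 1/2 MS medium, a log2 change of −2.42 (SE 0.38, adjusted p = 0.000403). Both stretches of each gene fell when they were tested apart, among 16925 transcripts. For *BT1* the log2 fold changes in Col-0 were −1.77 for the stretch of AT5G63160.2 and −3.11 for that of AT5G63160.3. For *BT2* they were −3.51 for AT3G48360.2 and −3.65 for AT3G48360.3.

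*NLP7*, the nitrate sensor, was read on 134 bases with few counts. It had 13, 21 and 18 counts in line 308 LN, against 43, 37, 30 and 31 counts in line 308 +AMF, and fell by 1.02 on the log2 scale (SE 0.25, adjusted p = 0.0107). In Col-0 it had 35, 30, 43, 29 and 27 counts on LN, against 27, 37, 40 and 49 counts on 1/2 MS medium. The groups of Col-0 overlapped, and the log2 change of −0.21 (SE 0.24, adjusted p = 0.539) did not pass the test.

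**Figure D3:**
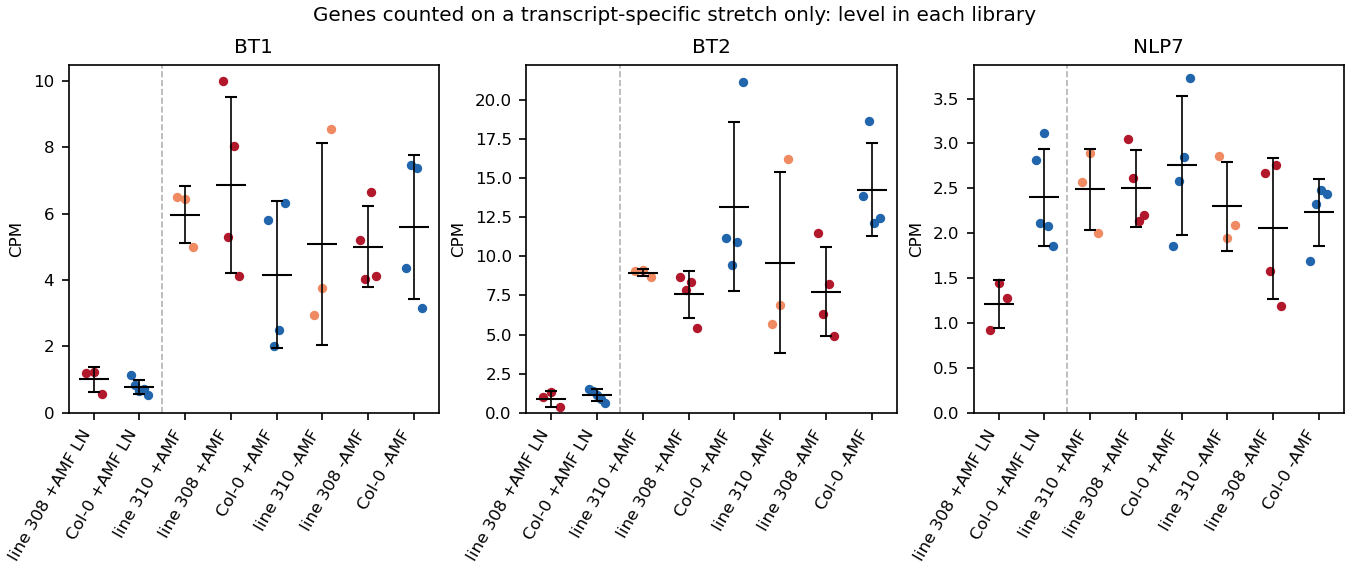
Level in CPM of *BT1*, *BT2* and *NLP7* on their transcript-specific stretches in each of the 30 libraries (points), with group mean and SD (bars) and LN groups left of the dashed line. *BT1* and *BT2* stay at or below 1.53 CPM in all 8 LN libraries, and *NLP7* is lowest in line 308 LN, with a mean of 1.22 CPM.

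Whether the response to the medium differed between line 308 and Col-0 was tested with an interaction term. Of the 7 genes 0 were called, beside 5.50% of all genes tested. At an unadjusted p under 0.05 there was 1 of the 7, beside 23.9% of all genes. The gene with the unadjusted p of 0.0369 was *NLP7*, whose response in line 308 minus that in Col-0 was −0.79 on the log2 scale (SE 0.35, adjusted p = 0.179). For the other genes this difference was 0.09 for *LBD38*, 0.21 for *LBD39*, −0.05 for *HRS1*, −0.05 for *HHO2*, −0.31 for *BT1* and 0.52 for *BT2*, with adjusted p between 0.582 and 0.907. A fall of *NLP7* particular to line 308 was thus not shown.

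Line 308 was next set against Col-0 within each condition, to ask what the transgene line changed. On LN 0 of the 7 genes were called, beside 8.64% of all genes tested. At an unadjusted p under 0.05 there were 2 of the 7, *NLP7* and *HHO2*, beside 28.4% of all genes. *NLP7* had 0.9232, 1.446 and 1.278 CPM in line 308 LN, against 2.818, 2.114, 3.117, 2.082 and 1.856 CPM in Col-0 LN, groups that did not overlap (log2 fold change −0.94, SE 0.27, 95% interval −1.46 to −0.42, adjusted p = 0.0510). *HHO2* overlapped between the genotypes, at 196.3 ± 32.1 CPM in line 308 LN (SD, n = 3) and 269.3 ± 37.3 CPM in Col-0 LN (SD, n = 5), with a log2 change of −0.43 (SE 0.14, adjusted p = 0.0702). DESeq2 called both, with adjusted p of 0.0349 for *HHO2* and 0.0331 for *NLP7*. Without Col-0 LN replicate 5, the library least like its group, edgeR called both lower in line 308, *HHO2* with a log2 fold change of −0.50 (adjusted p = 0.00939) and *NLP7* with −1.02 (adjusted p = 0.0177). The calls over all genes rose as well, to 4192 or 25.3% of the genes tested without that library, and to 2327 with DESeq2. The other 5 genes had adjusted p between 0.357 and 0.838.

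With AMF on 1/2 MS medium 1 of the 7 genes was called between line 308 and Col-0, beside 6.66% of all genes tested. Unadjusted, 2 of the 7 had a p under 0.05, beside 21.4% of all genes. *HHO2* had 98.1, 91.65, 92.68 and 92.94 CPM in line 308, all below the 99.49, 114.7, 128.4 and 143.2 CPM in Col-0, with a log2 change of −0.38 (SE 0.10, adjusted p = 0.0486). That call was lost without any 1 of line 308 +AMF replicates 1, 2, 3 and 4 or Col-0 +AMF replicates 2, 3 and 4, with adjusted p between 0.0745 and 0.137, and in a fit on all 8 groups (adjusted p = 0.0537). *BT2* had 8.647, 7.85, 8.38 and 5.392 CPM in line 308 and 11.18, 9.424, 10.9 and 21.16 CPM in Col-0. These groups did not overlap either, but the log2 change of −0.80 (SE 0.25, adjusted p = 0.0909) did not pass the test over all genes in edgeR, and passed in DESeq2 (adjusted p = 0.0253). *BT1*, its paralog, had 6.86 ± 2.65 CPM in line 308 and 4.16 ± 2.21 CPM in Col-0 (SD, n = 4 each), with an adjusted p of 0.311.

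Without AMF 0 of the 7 genes were called between line 308 and Col-0, beside 1.92% of all genes tested. Unadjusted, 1 of the 7 had a p under 0.05, beside 18.5% of all genes. That gene was *BT2*, with 11.47, 6.336, 8.219 and 4.899 CPM in line 308, all below the 13.84, 18.61, 12.12 and 12.46 CPM in Col-0 (log2 fold change −0.88, SE 0.24, adjusted p = 0.0954). Without line 308 −AMF replicate 1 it was called, with a log2 fold change of −1.15 (adjusted p = 0.0222), as it was by DESeq2 on all libraries (adjusted p = 0.0140). The calls over all genes rose as well, from 317 to 628 without that library and to 900 with DESeq2. *LBD38* did not overlap either, at 229.6, 239.4, 232.8 and 221.9 CPM in line 308 and 242.3, 253.5, 243.2 and 244.2 CPM in Col-0, but the difference was small, with a log2 fold change of −0.09 (95% interval −0.22 to 0.04, adjusted p = 0.488).

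**Figure D4:**
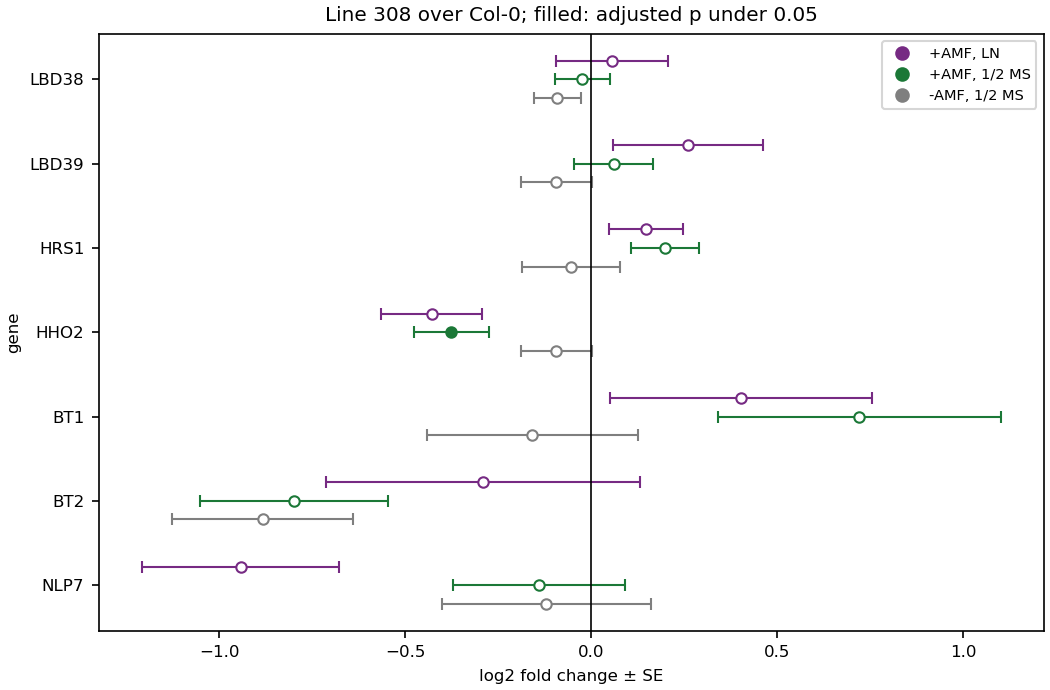
Log2 fold change of line 308 over Col-0 (horizontal axis, ± SE) for the 7 genes tested, from top to bottom on LN +AMF, 1/2 MS +AMF and 1/2 MS −AMF, with a filled point for an adjusted p under 0.05. The filled point is *HHO2* on 1/2 MS +AMF, at −0.38, and *BT2* lies left of 0 in all 3 conditions. On LN *BT2* is at −0.29 (adjusted p = 0.689 in edgeR), and its stretches tested apart differ in sign, at −0.68 and 0.35.

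Line 310, the other line with IPD3Min, was compared with Col-0 on 1/2 MS medium only. Without AMF 0 of the 7 genes were called, beside 0.0121% of all genes tested, 0 had an unadjusted p under 0.05, beside 10.2% of all genes, and the adjusted p lay between 0.558 and 0.974. With AMF 0 were called, beside 0.0302% of all genes tested, and 2 had an unadjusted p under 0.05, beside 9.68% of all genes. *HRS1* had 161.0, 178.1 and 163.0 CPM in line 310 +AMF, all above the 157.1, 131.7, 136.6 and 123.4 CPM in Col-0 +AMF (log2 fold change 0.29, SE 0.10, adjusted p = 0.428). *HHO2* had a log2 change of −0.30 (SE 0.13, adjusted p = 0.500) beside −0.38 in line 308, both set against the same Col-0 libraries. *BT2* had a log2 change of −0.55 (SE 0.26, adjusted p = 0.540) beside −0.80 in line 308, again against shared Col-0 libraries. Without Col-0 +AMF replicate 4, the highest at 21.16 CPM, these values were −0.23 in line 310 and −0.48 in line 308. The same counts of 0 were given by DESeq2 and by edgeR with a common dispersion.

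AMF against mock treatment was compared within each genotype on 1/2 MS medium. In line 310 0 of the 7 genes were called, beside 0% of all genes tested, and 2 had an unadjusted p under 0.05, beside 545 or 3.30% of all genes. Those were *LBD38*, with 280.3, 303.8 and 272.8 CPM with AMF and 233.4, 235.3 and 237.6 CPM without (log2 fold change 0.27, SE 0.09), and *HRS1* (log2 fold change 0.29, SE 0.12). Both had an adjusted p of 1.0, although their libraries did not overlap. In line 308 0 of the 7 were called, beside 0.0121% of all genes tested, and 0 had an unadjusted p under 0.05, beside 8.66% of all genes. In Col-0 0 were called, beside 0.871% of all genes tested, and 1 had an unadjusted p under 0.05, beside 17.8% of all genes. That gene was *HHO2*, at 121.4 ± 18.7 CPM with AMF and 92.3 ± 10.4 CPM without (SD, n = 4 each), with a log2 change of 0.39 (SE 0.12, adjusted p = 0.129). Without Col-0 +AMF replicate 1 it was called, with a log2 fold change of 0.47 (adjusted p = 0.0336), and the calls over all genes rose from 144 to 904. DESeq2 and edgeR with a common dispersion also called 0 of the 7 in each genotype.

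Levels were compared between genes per kb of exon, for the 4 genes counted in full. In all 6 groups on 1/2 MS medium *LBD38* had the highest mean and *HHO2* the lowest, and *HHO2* did not overlap with the gene above it. On LN *HHO2* had the highest mean in both genotypes. In line 308 LN *HHO2* had 105.9 ± 17.3, *HRS1* 103.9 ± 6.42, *LBD38* 82.7 ± 20.3 and *LBD39* 48.9 ± 9.84 CPM per kb (SD, n = 3), and neither *HHO2* and *HRS1* nor *HRS1* and *LBD38* stood apart beyond their spread. In Col-0 LN *HHO2* led with 145.3 ± 20.1 CPM per kb (SD, n = 5), clear of *HRS1* at 95.6 ± 11.1, which overlapped with *LBD38* at 81.0 ± 10.96, and *LBD39* was lowest at 41.7 ± 10.9. Within a library, the level per kb of *HHO2* over that of *LBD38* was 0.833 to 2.255 in the 8 LN libraries (median 1.668), and 0.311 to 0.564 in the 22 libraries from 1/2 MS medium (median 0.362), with no overlap. This follows from the opposite changes of *HHO2* and *LBD38* given above and is no separate result.

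Correlations between the genes across libraries depended on whether both media were included. These correlations are given as a description over libraries that share groups, with Pearson's r on log2 CPM. Over all 30 libraries r was 0.91 between *LBD38* and *LBD39*, 0.90 between *BT1* and *BT2*, and −0.86 between *LBD38* and *HHO2*. Over the 22 libraries from 1/2 MS medium alone these values were 0.04, 0.33 and 0.17. For *HRS1* and *BT1* r was 0.61 over all libraries and 0.71 on 1/2 MS medium. For *HHO2* and *BT2* it went from −0.82 to 0.45. After the group means were taken out, r was 0.75 between *BT1* and *BT2*, 0.54 between *LBD38* and *LBD39* and −0.26 between *LBD38* and *HHO2*.

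The gene outside the 10 whose log2 CPM went most closely with each was taken from 8739 genes with a mean of at least 10 CPM over the 30 libraries. For *HHO2* it was *GSR 1* (AT5G37600), a cytosolic glutamine synthetase that fixes ammonium (r 0.966). For *LBD39* it was *IDD2* (AT3G50700), which encodes a zinc finger protein of the indeterminate domain family (r 0.954), and for *LBD38* AT1G53640 (r 0.957). *BT2* went most closely with AT5G14120 (r 0.978), *BT1* with AT4G25835 (r 0.92) and *NLP7* with AT1G22930 (r 0.833). The least close match was that of *HRS1* with *CIPK7* (AT3G23000), a CBL-interacting protein kinase (r 0.69). All these libraries share the split between media, which most of these genes follow.

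Genes that the NIGT1 proteins are known to repress were taken as a list of 6, of which 5 were tested. On LN all 5 rose in line 308 and in Col-0, with a median log2 fold change of 2.80 in line 308 and 3.91 in Col-0. Of all genes tested, 16.7% were called higher on LN in line 308 and 19.3% in Col-0. *SPX1* is also in the phosphate-starvation list below, *NRT2.4* and *NRT2.5* in the nitrogen-starvation uptake list and *NRT2.1* in the nitrate-induced list. Whether the NIGT1 proteins have a part in these rises was not tested. *SPX1*, an inhibitor of the phosphate starvation regulator PHR1, had 1557, 1092 and 2013 CPM in line 308 LN, against 37.57, 22.77, 31.46 and 29.23 CPM in line 308 +AMF (log2 fold change 5.69, SE 0.23, adjusted p = 8.02e-07). Col-0 had 2276 ± 174 CPM on LN (SD, n = 5) and 34.7 ± 11.1 CPM on 1/2 MS medium (SD, n = 4), a log2 change of 6.03 (SE 0.22, adjusted p = 5.86e-09). *SPX1* thus rose in the same roots in which *HHO2* rose. *NRT2.4*, a high-affinity nitrate transporter of nitrogen-starved roots, had 25.4 ± 4.65 CPM in line 308 LN (SD, n = 3) and 1.63 ± 0.73 CPM in line 308 +AMF (SD, n = 4), a log2 fold change of 3.96. In Col-0 *NRT2.4* had 48.31, 36.5, 41.32, 165.9 and 46.68 CPM on LN, replicate 4 being far above the others, and 0.99 to 2.35 CPM on 1/2 MS medium, a log2 fold change of 5.43.

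*NRT2.1*, the main high-affinity nitrate transporter of roots, had 121.9, 104.1 and 177.7 CPM in line 308 LN, against 38.13, 55.52, 77.2 and 46.4 CPM in line 308 +AMF (log2 fold change 1.32, SE 0.23, adjusted p = 0.00248). In Col-0 it had 867.3, 675.4, 673.0, 637.3 and 158.1 CPM on LN, against 59.27, 31.34, 54.62 and 13.25 CPM on 1/2 MS medium (log2 fold change 3.91, SE 0.52, adjusted p = 0.000131). It rose in both genotypes, and Col-0 LN replicate 5 lay between the other Col-0 libraries on LN and those on 1/2 MS medium. The response was smaller in line 308 by 2.57 on the log2 scale (SE 0.63, adjusted p = 0.0284). It was the difference that was called among the 5 genes, beside 5.50% of all genes tested. On LN *NRT2.1* was lower in line 308 than in Col-0, with a log2 change of −2.13 (SE 0.43, adjusted p = 0.0201), beside 8.64% of all genes called. The genotypes overlapped on LN, as Col-0 LN replicate 5 lay within the range of line 308 LN. Leaving out 1 library at a time, the difference in response stayed between −2.87 and −2.33, with an adjusted p of up to 0.0669 without line 308 LN replicate 2. The fold change between the genotypes on LN stayed between −2.38 and −1.97, with an adjusted p of up to 0.0729 without line 308 LN replicate 1.

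**Figure D5:**
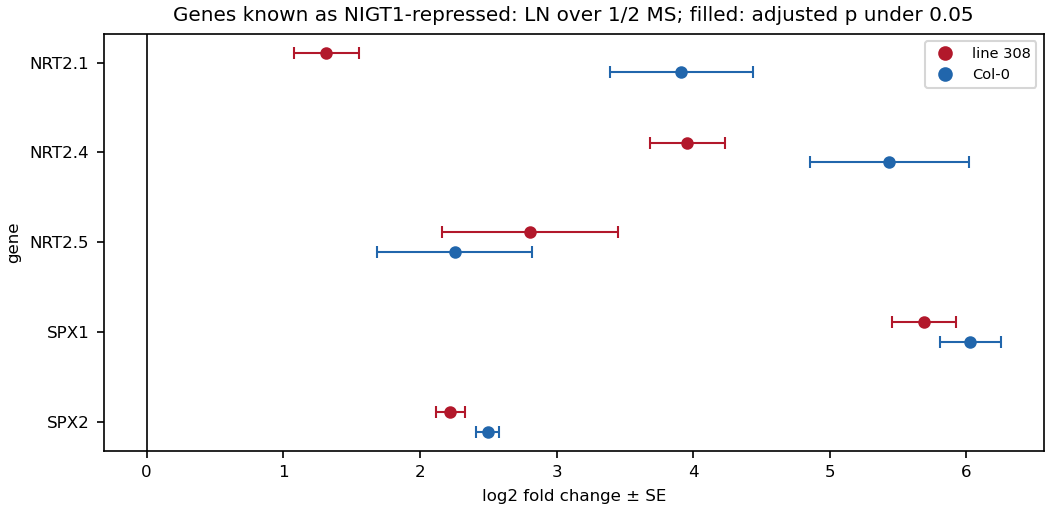
Log2 fold change of LN over 1/2 MS medium in +AMF roots (horizontal axis, ± SE) for the 5 tested genes of the NIGT1-repressed list, line 308 above Col-0, all with an adjusted p under 0.05. All lie to the right of 0, and the pair of *NRT2.1*, at 1.32 in line 308 and 3.91 in Col-0, is the widest apart.

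The counts of the other lists on LN stand beside 31.7% of all genes tested called in line 308 and 35.8% in Col-0. For the genes of all lists, here and above, the counted part of each gene was not determined. A low CPM there need not be a low level of the gene. Among 17 relatives of the 10 genes, 11 were tested. On LN 1 rose and 1 fell in line 308, and 2 rose and 1 fell in Col-0, *NLP4* (log2 fold change 0.58, adjusted p = 0.0354) and *HHO4* (0.43, adjusted p = 0.0135) being higher in Col-0. *BT5*, a relative of *BT1* and *BT2* with 1 fall in each genotype, had 41.7 ± 9.62 CPM in Col-0 LN (SD, n = 5) and 95.7 ± 31.4 CPM in Col-0 +AMF (SD, n = 4). The calls of *NLP4* and of the relatives in line 308 moved with single libraries, *NLP4* to an adjusted p of 0.107 without Col-0 +AMF replicate 3, *BT5* to 0.0762 without line 308 LN replicate 3 and *HHO4* to 0.170 without line 308 LN replicate 1. Of 20 nitrate-induced genes 16 were tested. On LN 4 rose and 4 fell in line 308, and 7 rose and 3 fell in Col-0. The nitrate transporters of this list moved in both directions in Col-0. *NRT1.1*, the dual-affinity transporter and sensor, had 395.0 ± 80.5 CPM on LN (SD, n = 5) and 787.6 ± 209.4 CPM on 1/2 MS medium (SD, n = 4), and *CLCa*, which loads nitrate into the vacuole, fell by 1.32 on the log2 scale. *NRT2.2* had 7.26 ± 4.49 CPM on LN in Col-0 (SD, n = 5) and 0.0353 ± 0.0407 CPM on 1/2 MS medium (SD, n = 4).

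Of 14 genes of nitrate signalling 9 were tested. On LN 0 rose and 3 fell in line 308, and 2 rose and 2 fell in Col-0, *CPK10*, a calcium-dependent kinase, by 0.45 and *SPL9*, a transcription factor, by −0.47 on the log2 scale. *CBL1*, a calcium sensor with few counts, had 0.65 ± 0.40 CPM in Col-0 LN (SD, n = 5) and 0.11 ± 0.09 CPM in Col-0 +AMF (SD, n = 4). Without Col-0 +AMF replicate 2 neither *CBL1* (adjusted p = 0.051) nor *SPL9* (adjusted p = 0.0682) was called. Of 15 phosphate-starvation genes 14 were tested. On LN 11 rose and 1 fell in line 308, and 12 rose and 1 fell in Col-0, with medians of 4.101 and 4.499 on the log2 scale. In Col-0 *SPX3* had 699 ± 151 CPM on LN (SD, n = 5) and 0.93 ± 0.27 CPM on 1/2 MS medium (SD, n = 4), and *IPS1*, a non-coding RNA that sequesters miR399, had 481.5 ± 72.1 and 0.25 ± 0.04 CPM. *PHO1*, which loads phosphate into the xylem, fell by 0.56 on the log2 scale, and its fall in line 308 was not called without LN replicate 3 (adjusted p = 0.101). Of 8 nitrogen-starvation uptake genes all were tested. On LN 3 rose and 3 fell in line 308, and 4 rose and 0 fell in Col-0, among them *AMT1;5*, an ammonium transporter with 4.66 ± 2.92 CPM on LN (SD, n = 5) and 0.0537 ± 0.0360 CPM on 1/2 MS medium (SD, n = 4). With single libraries left out, the number that fell in line 308 was between 1 without LN replicate 1 and 4 without LN replicate 2, and in Col-0 it was 1 without +AMF replicate 4.

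Anthocyanin genes, which the LBD factors are known to repress, were a list of 6 with 3 tested. On LN 0 were called in line 308, and 2 fell in Col-0, *DFR*, whose groups overlapped, with 1.69 ± 1.44 CPM on LN (SD, n = 5) and 7.56 ± 4.74 CPM on 1/2 MS medium (SD, n = 4), and *UGT75C1* with 2.60 ± 1.24 and 6.70 ± 2.395 CPM. *LBD38* and *LBD39* fell in the same Col-0 roots, and the summed leaf markers were lower there too. Neither *LBD38* nor *LBD39* was called between line 308 and Col-0. All 3 anthocyanin genes were lower in line 308 on LN, where 8.64% of all genes tested were called. With AMF on 1/2 MS medium all 3 were lower too, beside 6.66% of all genes. The number of the 3 called on LN was between 0 and 3 when single libraries were left out, and *DFR* had an adjusted p of 0.121 there without line 308 LN replicate 3. Without AMF 0 were called, with 3 at an unadjusted p under 0.05. In line 310 0 of the 3 were called with or without AMF, beside 0.0302% and 0.0121% of all genes. Its medians on the log2 scale were −0.50 with AMF and −0.27 without, against −3.91 and −2.65 in line 308. Of the 6 tested leaf markers, 5 were called lower in line 308 on LN and 5 with AMF on 1/2 MS medium, and 0 without AMF, with 5 at an unadjusted p under 0.05. Whether the LBD factors or the leaf marker levels have a part in the anthocyanin differences was not tested.

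In the other lists the genes called between line 308 and Col-0 on LN, where 8.64% of all genes were called, were all lower in line 308, and they were named after their values had been seen unless the rule had named them. They were 3 of the 16 nitrate-induced genes (*NRT2.1*, *NRT2.2* and *CLCa*), *NRT2.1* again among the 5 NIGT1-repressed genes, and 2 of the 8 uptake genes (*AMT1;1* and *LHT1*). They were further 5 of the 14 phosphate-starvation genes (*PHT1;1*, *PHT1;4*, *SPX3*, *PAP17* and *SQD1*), 1 of the 11 relatives (*NLP2*) and 0 of the 9 signalling genes, with 4 of those at an unadjusted p under 0.05. Without Col-0 LN replicate 5 the numbers called lower were 8 nitrate-induced, 4 NIGT1-repressed, 6 uptake and 9 phosphate-starvation genes and 3 relatives, while the calls over all genes became 4192, or 25.3% of the genes tested. With another library of line 308 LN or Col-0 LN left out they fell to as few as 0, 0, 0, 1 and 0. With AMF on 1/2 MS medium 2 of the 16 nitrate-induced genes were called, both higher in line 308. They were *NIR1*, nitrite reductase, with a log2 fold change of 0.44 (adjusted p = 0.00759), and *G6PD3*, a glucose-6-phosphate dehydrogenase, at 71.4 ± 8.89 and 55.8 ± 1.17 CPM (adjusted p = 0.0407, and 0.111 without line 308 +AMF replicate 3). These and the next genes were named after their values had been seen. Lower in line 308 under this condition were *NRT2.5*, a nitrate transporter in both the NIGT1-repressed and the uptake list, *DUR3*, a urea transporter of the uptake list, and *PHO1*. Without Col-0 +AMF replicate 3 *NRT2.5* (adjusted p = 0.0949) and *PHO1* (adjusted p = 0.0757) were not called. Without AMF *DUR3* was the gene called among all these lists, with a log2 fold change of −0.96 (adjusted p = 0.00858).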

How the data were processed

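The authors assigned cleaned, strand-specific paired reads to plant, fungus or construct with BBSplit and counted the plant pairs per annotated transcript (Araport11 on TAIR10) with featureCounts 2.0.1. The GEO labels also name FastQC, HISAT2 and DESeq2, without saying at which step. The deposited values are raw counts per transcript, not normalized, and no row lacked a gene. They were summed per gene here. Genes with at least 10 counts in 1 of the 30 libraries entered edgeR 4.0.16 (glmQLFit and glmQLFTest, TMM scaling, R 4.3.3), fitted on the groups of each comparison, with Benjamini-Hochberg adjustment and a threshold of 0.05. CPM use TMM factors, and a prior count of 2 was added for correlations of log2 CPM. The SE is the size of the log2 fold change over the square root of the F statistic of the test. Intervals use a normal approximation on this SE, so with few libraries they are narrower than those of the test. DESeq2 1.42.0 and other settings served as alternatives. The fits were tested on simulated data. Replicate libraries differed beyond sampling noise in all 43 pairs, so none was counted as a duplicate. Gene starts and ends were the same as in RefSeq TAIR10.1 for 99.47% of genes. Lotus libraries, construct counts and fungal counts were not used here.

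The 10 regulators and the gene lists were chosen with earlier results of these data known. Named were all 10 regulators, for each tested one the gene outside them that correlated best with it, and per list the 2 largest rises and the 2 largest falls among genes called between LN and 1/2 MS medium in Col-0. Other genes are named where said.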

Additional observations from a re-analysis of the deposited data

Results flagged for a closer look

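Of 35 groups of 4 or 5 libraries checked over the 7 genes tested, 2 held a library far from its group, where chance gives about 1 in 20. *LBD39* had 166.8 CPM in line 308 −AMF replicate 4, where the other 3 libraries lay between 140.4 and 143.8 CPM. *BT2* had 21.16 CPM in Col-0 +AMF replicate 4, where the other 3 lay between 9.424 and 11.18 CPM.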

How the results depend on the processing

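Of 77 values, 7 genes in 11 comparisons, 70 kept their side of the threshold in all the alternatives run, and 0 changed sign while called. Under every one of them, leaving out any 1 library included, 6 genes stayed called between LN and 1/2 MS medium in line 308 and 5 in Col-0. The count of the 7 genes called between line 308 and Col-0 on LN was 0, but 2 with DESeq2, 1 with a common dispersion, 1 with filterByExpr and 2 in a fit on all 8 groups, and between 0 and 2 when a library was left out. Without AMF it was 0, but 1 (*BT2*) with DESeq2 and 1 with a common dispersion, and between 0 and 1 when a library was left out. With AMF on 1/2 MS medium it was 1, but 2 with DESeq2 (*HHO2* and *BT2*), 2 with a common dispersion (*BT1* and *BT2*) and 0 in a fit on all 8 groups, and between 0 and 1 when a library was left out. In the comparison of AMF with mock treatment in Col-0 it was between 0 and 1. The causes were not tested.

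Replicate numbers did not pair the libraries: the correlation of same-numbered deviations lay between −0.317 and 0.248 over 10 comparisons, and 0 met the mark for pairing. With the replicate block 2 of the 7 genes (*HHO2* and *NLP7*) were called between line 308 and Col-0 on LN, and 0 with AMF on 1/2 MS medium. The block changed no other count of these genes, and over all genes it gave 3328 calls on LN and 2542 for the interaction.

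Over all genes, the count called for the interaction was 909, but 1666 with DESeq2, 1753 with a common dispersion, and between 415 without line 308 LN replicate 3 and 2735 without Col-0 LN replicate 5. For line 308 against Col-0 it was 1429 on LN, but 2327 with DESeq2, 2633 with a common dispersion, 2953 on all 8 groups, and between 240 without line 308 LN replicate 3 and 4192 without Col-0 LN replicate 5. It was 317 without AMF, but 900, 1488 and 597 under those 3 settings, and between 103 without Col-0 −AMF replicate 1 and 646 without Col-0 −AMF replicate 4. It was 1102 with AMF, but 1908 with a common dispersion, and between 580 without Col-0 +AMF replicate 3 and 1622 without Col-0 +AMF replicate 1. For line 310 against Col-0, 2 genes without AMF and 5 with AMF compare with 159 and 190 by DESeq2 and 325 and 548 with a common dispersion. For AMF, 144 genes in Col-0, 2 in line 308 and 0 in line 310 compare with 839, 113 and 18 by DESeq2 and 1350, 164 and 80 with a common dispersion. Leaving out 1 library gave between 3 (without Col-0 −AMF replicate 3) and 904 (without Col-0 +AMF replicate 1) genes for AMF in Col-0, 0 to 4 in line 308 and 0 in line 310, and 0 to 9 and 2 to 75 for line 310 without and with AMF. The replicate block gave 83 genes for AMF in Col-0. The lists were recounted without each library as an alternative chosen after seeing the data. Depth limits *BT1* and *BT2* on LN, with at most 20 counts in a library, and *NLP7* throughout.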
